A study of Rattus norvegicus with 16 samples.

Results

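Cdkn1a encodes p21, an inhibitor of cyclin-dependent kinases, and is a classical target gene of the transcription factor p53. Its transcript and those of 9 other p53 target genes were followed in rat glomeruli after podocyte injury and treatment with ligands of the nuclear receptor PPARγ. The 10 genes, taken by symbol from the 13222 genes of the deposited table, were Cdkn1a, Phlda3, Ccng1, Mdm2, Btg2, Sesn1, Apaf1, Xpc, Zmat3 and Bax, and all 10 were present. They are known p53 targets, and the set was chosen by the measured fall of Cdkn1a in injured rats given GQ-16 compared with injured rats given no drug. The values of that contrast are therefore given as a description with no test, and Cdkn1a was tested only between the pioglitazone and control rats, with a spread estimated over all 4 groups.

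Glomeruli came from 16 male Wistar rats of about 175 g. Puromycin aminonucleoside (PAN), a toxin that injures podocytes and causes heavy proteinuria, was given by intravenous injection. Drug or vehicle was given each day by gavage, and glomeruli were collected with sieves on day 11. There were 4 groups with 4 rats in each: control rats that the labels call healthy, rats given PAN, rats given PAN and pioglitazone, and rats given PAN and GQ-16. Pioglitazone, a full agonist of PPARγ, is an antidiabetic drug, and GQ-16 is a ligand that activates the receptor partially. Doses, litters and batches are not given in the sources used here, nor is it stated whether control rats were injected or gavaged. The rats of a group carry numbers that name them only.

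In unstressed cells p53 is held low by Mdm2, a ubiquitin ligase that is itself a p53 target, so that the pathway contains a feedback loop. DNA damage and other stresses release p53, which binds response elements near its targets. The products stop the cell cycle, assist DNA repair, dampen growth signalling or start mitochondrial apoptosis. Podocytes are largely non-dividing cells, and p21 has been studied in them as a brake on the cell cycle after injury. Several p53 targets, Cdkn1a among them, also respond to other transcription factors.

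The sequence just upstream of the start of each gene shows whether the letters of a p53 response element are present there. RefSeq sequences of assembly GRCr8 matched 8 of the 10 genes, all but Zmat3 and Bax, and the 250 bases before the listed start were searched. The p53 response element has 20 letters in 2 copies of a 10-letter motif, and a match had at most 2 letters off and at most 13 bases between the copies. The element reads the same on both strands, so a single search covers both. The sequences of the 3 genes with the widest spread between groups are shown 5′ to 3′ on the strand of the gene, with the letters of a match in capitals. They lie at chr20:7150682-7150931 on the plus strand for Cdkn1a, chr13:49744753-49745002 on the plus strand for Phlda3, and chr10:25684877-25685126 on the minus strand for Ccng1.
Cdkn1a: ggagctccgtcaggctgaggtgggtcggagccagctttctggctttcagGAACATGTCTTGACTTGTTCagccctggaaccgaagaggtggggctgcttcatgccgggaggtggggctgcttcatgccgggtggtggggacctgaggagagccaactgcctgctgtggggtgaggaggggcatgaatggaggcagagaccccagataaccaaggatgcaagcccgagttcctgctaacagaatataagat
Phlda3: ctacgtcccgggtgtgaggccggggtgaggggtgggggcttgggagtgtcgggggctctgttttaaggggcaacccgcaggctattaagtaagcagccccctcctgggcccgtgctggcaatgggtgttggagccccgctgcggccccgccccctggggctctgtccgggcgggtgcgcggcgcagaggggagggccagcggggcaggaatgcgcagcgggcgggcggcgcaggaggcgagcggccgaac
Ccng1: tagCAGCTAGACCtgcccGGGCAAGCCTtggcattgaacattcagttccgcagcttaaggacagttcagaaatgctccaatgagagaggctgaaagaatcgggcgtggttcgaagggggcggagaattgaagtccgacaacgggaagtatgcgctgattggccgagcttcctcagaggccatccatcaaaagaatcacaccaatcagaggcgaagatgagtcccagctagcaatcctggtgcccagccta

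The Cdkn1a match, from -201 to -182 relative to the listed start, had 1 letter off and no bases between the copies. Of 33469 rat promoters of the same length, 0.0209% held a match as close as that. The Ccng1 match, from -247 to -223, had 2 letters off and 5 bases between the copies, and Sesn1 held a match of the same grade. Matches within these limits were present in 1.6% of all promoters. The Phlda3, Mdm2, Btg2, Apaf1 and Xpc windows held none. A match is only a match of letters, and its absence refers to these 250 bases alone.

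Levels are given in CPM, the usual normalized read count, in which the reads of a gene are scaled to the total of all listed genes in the library. Because CPM takes no account of transcript length, levels are compared between rats and not between genes. Library totals ran from 13351137 to 21977663 reads, so that 3 reads correspond to between 0.137 and 0.225 CPM, and all 10 genes lay far above this in all 16 libraries. Changes are differences of group means of log2(CPM + 1) with the standard error (SE), and changed means an adjusted p under 0.05 in limma with Benjamini-Hochberg adjustment over all 13222 genes. Mitochondrial transcripts took 26.3% ± 11.8 of reads in control rats, 16.4% ± 11.2 with GQ-16, 14.3% ± 4.57 with pioglitazone and 9.24% ± 2.20 in PAN rats (SD, n = 4). The median change of all genes against control was 0.28 in PAN rats, 0.17 with GQ-16 and 0.21 with pioglitazone. Under median-ratio scaling, which sets the typical gene equal between libraries, these medians were between -0.003 and 0.009, and values on that scaling are named as such. Podocyte markers summed to between 2179 and 14000 CPM in every library and all 10 were detected, so that the defining markers of the labelled tissue were present. The lowest sum was that of a control rat, and the sums by group are given below.

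**Figure D1:**
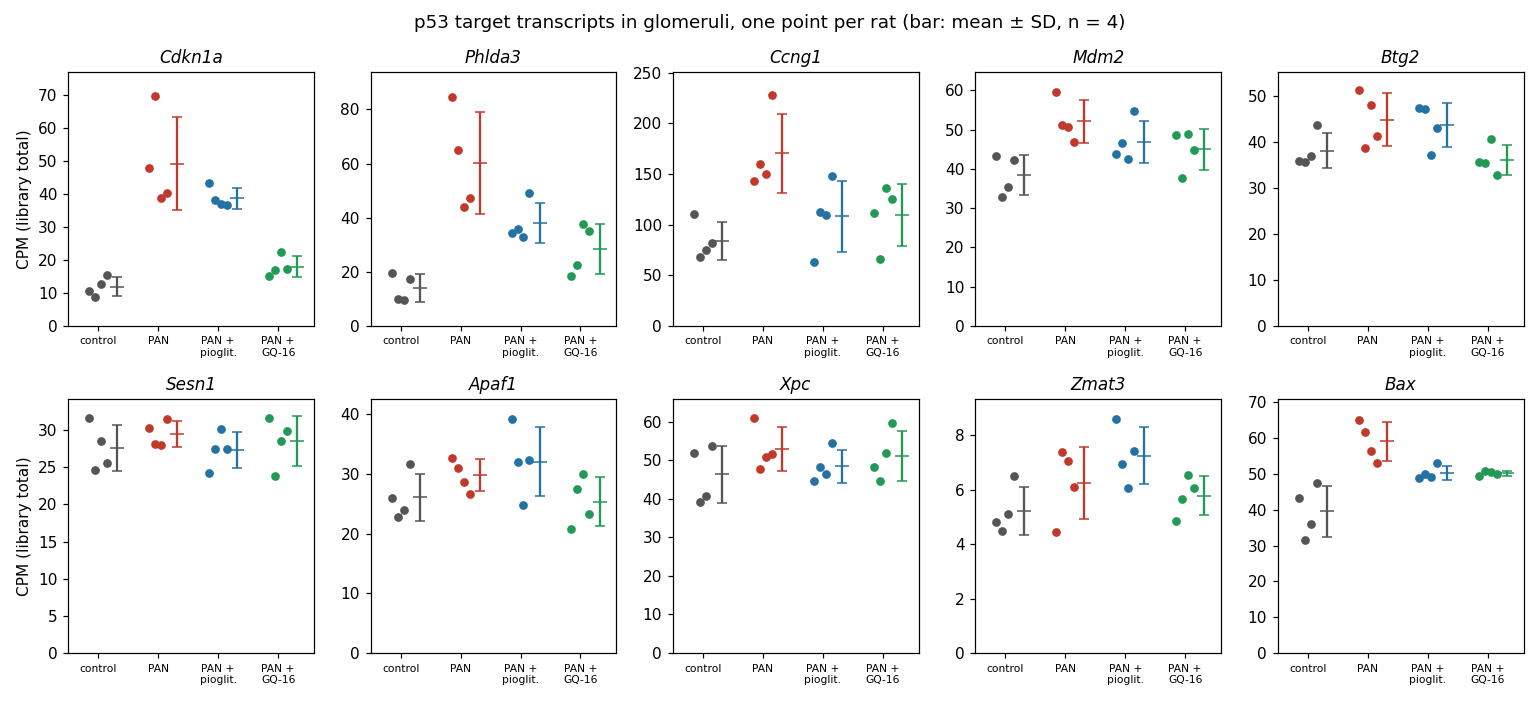
Levels of the 10 p53 targets in CPM (vertical axes, linear from 0) in each of the 16 rats, by group, with the mean and SD beside the 4 points. The Cdkn1a points of PAN rats lie between 38.9 and 69.6 CPM and those of GQ-16-treated rats between 15.1 and 22.5 CPM, while the Sesn1 points of all groups overlap.

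The injury comparison asked how the targets differed between PAN and control glomeruli. For Cdkn1a, Phlda3, Ccng1, Mdm2 and Bax each PAN rat lay above all 4 control rats. The other 5 genes, Btg2, Sesn1, Apaf1, Xpc and Zmat3, had overlapping ranges. Phlda3 and Ccng1 had the largest tested increases, and those of Mdm2 and Bax were smaller.

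Cdkn1a (ENSRNOG00000000521) stood at 10.5, 8.84, 12.7 and 15.5 CPM in the 4 control rats and at 48.0, 69.6, 38.9 and 40.2 CPM in the 4 PAN rats. The lowest PAN rat was well above the highest control rat. The means were 11.9 ± 2.88 and 49.2 ± 14.2 CPM (SD, n = 4), a log2 change of 1.95 (SE 0.19) and of 1.66 with median-ratio scaling, given without a test because the PAN rats entered the contrast known beforehand.

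Phlda3 (ENSRNOG00000009068), which encodes a pleckstrin-homology protein that competes with the kinase Akt for membrane lipids, was likewise separate between the groups. It stood at 19.6, 9.74, 9.58 and 17.2 CPM in control rats and at 84.8, 64.8, 44.0 and 47.4 CPM in PAN rats. It rose by a log2 change of 2.04 (SE 0.27; adjusted p = 0.000572 by limma), and by 1.76 with median-ratio scaling (adjusted p = 0.000526).

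Of the genes that feed back on p53, Ccng1 and Mdm2 both passed the test. Ccng1 (ENSRNOG00000003256) encodes cyclin G1, an atypical cyclin that recruits a phosphatase to Mdm2. Its levels were 110.8, 67.5, 75.1 and 81.7 CPM in control and 142.8, 160.2, 149.9 and 228.3 CPM in PAN, so the groups were separate and the fourth PAN rat was the highest. It rose by a log2 change of 1.01 (SE 0.26; adjusted p = 0.0161 by limma) and by 0.71 with median-ratio scaling (adjusted p = 0.0487). The adjusted p was 0.0666 without control rat 2 and 0.0571 without control rat 3.

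Mdm2 (ENSRNOG00000006304), the ligase that marks p53 for degradation, stood at 43.2, 32.8, 35.4 and 42.2 CPM in control and at 59.7, 51.2, 50.6 and 46.8 CPM in PAN. It rose by a log2 change of 0.43 (SE 0.13; adjusted p = 0.0268 by limma), against a median of 0.28 over all genes. With median-ratio scaling the change was 0.14 and the call was lost (adjusted p = 0.211). The call was also lost without control rat 2 (adjusted p = 0.0977), control rat 3 (0.0931), PAN rat 1 (0.0972) or PAN rat 2 (0.0597). In a limma fit to the PAN and control rats only it was lost too (adjusted p = 0.064).

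Of the apoptosis genes, Bax (ENSRNOG00000020876), whose product perforates the outer mitochondrial membrane, stood at 43.3, 31.6, 36.1 and 47.4 CPM in control and at 65.2, 61.8, 56.3 and 53.2 CPM in PAN. It rose by a log2 change of 0.58 (SE 0.12; adjusted p = 0.00462 by limma) and by 0.28 with median-ratio scaling (adjusted p = 0.0422). Apaf1, the scaffold of the apoptosome that acts downstream of Bax, lay between 22.9 and 31.7 CPM in control and between 26.6 and 32.8 CPM in PAN, with a log2 change of 0.19 (SE 0.15; adjusted p = 0.330 by limma).

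The remaining targets did not pass the test either, and their changes lay below the median of all genes. Btg2, an anti-proliferative partner of the CCR4-NOT deadenylase, had a log2 change of 0.23 (limma adjusted p = 0.158). Sesn1, a sestrin that restrains mTORC1, had 0.10 (adjusted p = 0.518). Xpc, which recognises damaged DNA in nucleotide excision repair, had 0.19 (adjusted p = 0.257), and Zmat3, a zinc-finger RNA-binding protein, had 0.21 (adjusted p = 0.313). With median-ratio scaling the sign turned for Btg2 (-0.07), Sesn1 (-0.20), Apaf1 (-0.10), Xpc (-0.10) and Zmat3 (-0.05).

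Thus 4 of the 9 tested members changed, all of them upward, where 22.3% of all genes changed and 21.7% rose. With median-ratio scaling 3 of 9 changed, Phlda3, Ccng1 and Bax, against 8.63% of all genes. Phlda3 alone passed when library number was a covariate, and also in the 13 libraries with under 30% mitochondrial reads, where Bax had an adjusted p of 0.0972 in limma, Ccng1 0.231 and Mdm2 0.352. Bax also missed the threshold with quantile scaling (adjusted p = 0.0724) and with totals without mitochondrial genes (0.0824), and Ccng1 did with voom (0.0517). For 5 of the 10 members, Cdkn1a included, each PAN rat lay above all control rats on both scalings. The same held for 22.4% of all genes, and for 10.6% with median-ratio scaling, and nothing is read from this for Cdkn1a, whose PAN values entered its choice. The median change over the 10 members, 0.33, was close to that of all genes, 0.28. The group was uneven: 5 members separated from control and 5 did not.

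**Figure D2:**
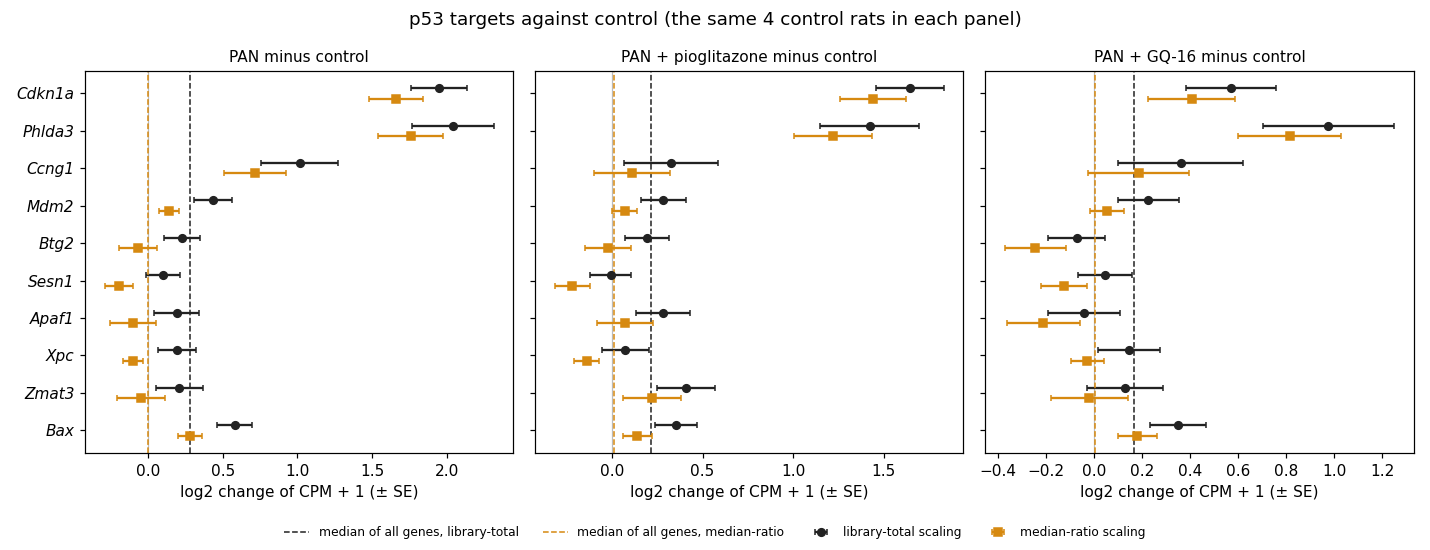
Log2 change of CPM + 1 against control (horizontal axes) for the 10 targets in PAN rats without a drug, with pioglitazone and with GQ-16, with SE bars on library-total (black) and median-ratio (orange) scaling. Dashed lines mark the median of all genes. Cdkn1a and Phlda3 lie far to the right of both lines in PAN (1.95 and 2.04) and under pioglitazone (1.65 and 1.42). The panels share the 4 control rats.

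Neither the pioglitazone-treated injured rats nor the controls entered the contrast behind the choice of Cdkn1a, and all 10 genes were tested between them. Cdkn1a and Phlda3 were higher, and the other 8 did not pass. Cdkn1a stood at 43.4, 38.1, 36.8 and 36.6 CPM with pioglitazone, a narrow range that lay wholly above the control rats. It rose by a log2 change of 1.65 (SE 0.19; adjusted p = 0.00101 by limma), and by 1.44 with median-ratio scaling (adjusted p = 0.00362). Its adjusted p was 0.00270 in limma when the spread came from the control and pioglitazone rats alone. Phlda3 stood at 34.4, 35.8, 32.7 and 49.1 CPM, again above every control rat, and rose by 1.42 (SE 0.27, adjusted p = 0.0143; 1.22 and 0.0158 with median-ratio scaling).

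The feedback and apoptosis genes had smaller values in that comparison. Ccng1 stood at 63.0, 112.3, 109.0 and 147.8 CPM with pioglitazone, a range that held all of the control values, with a log2 change of 0.33 (SE 0.26; adjusted p = 0.371 by limma). Mdm2 had 0.28 (SE 0.13, adjusted p = 0.160). With median-ratio scaling Ccng1 had 0.11, Mdm2 0.07 and Bax 0.14. Bax stood at 48.9, 49.9, 49.1 and 53.2 CPM, each above the highest control rat, as were 13.1% of all genes, with a change of 0.35 (SE 0.12, adjusted p = 0.0858). Its ranges overlapped with median-ratio scaling, and it passed without control rat 1 (adjusted p = 0.0490 in limma) or control rat 4 (0.0361). The share of all genes called was 4.98%, and 2.86% with median-ratio scaling, beside 2 of 10 members on each.

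The 5 other targets overlapped control with pioglitazone. The means with pioglitazone and then in control were 43.7 and 38.0 CPM for Btg2, 27.3 and 27.6 for Sesn1, 32.1 and 26.1 for Apaf1, 48.4 and 46.3 for Xpc, and 7.24 and 5.22 for Zmat3. With median-ratio scaling the order of the means turned for Btg2 (42.4 and 42.9) and Xpc (46.7 and 51.6). Xpc then lay between 44.4 and 48.4 CPM with pioglitazone, below every control rat (49.9 to 53.7), as did 4.66% of all genes, and did not pass the test (adjusted p = 0.250 by limma).

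Phlda3 lost its call without control rat 2 (adjusted p = 0.0661), control rat 3 (0.0640) or pioglitazone rat 2 (0.0537). Control rats 2 and 3 and GQ-16 rat 2 had over 30% mitochondrial reads. When these 3 libraries were left out, an alternative chosen after seeing the data, neither gene passed: Cdkn1a had a log2 change of 1.52 (limma adjusted p = 0.104) and Phlda3 one of 0.99 (adjusted p = 0.413), and 0 of all genes passed.

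Under GQ-16 none of the 9 tested members changed against control by limma with adjustment, and Phlda3 and Bax had unadjusted p under 0.05. Cdkn1a stood at 15.1, 17.0, 22.5 and 17.2 CPM, so that the lowest of these rats lay below the highest control rat at 15.5 CPM and the others above it. The log2 change was 0.57 (SE 0.19), and 0.41 with median-ratio scaling, with no test. Phlda3 stood at 18.3, 22.6, 37.7 and 35.0 CPM, which overlapped the control range in the first rat. Its change of 0.98 (SE 0.27) had an adjusted p of 0.0928 in limma, and without control rat 1 a change of 1.15 passed with 0.0254.

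The other targets lay closer to control. Ccng1 stood at 111.3, 66.4, 135.6 and 125.7 CPM in these rats, with a difference of 0.36 on the log2 scale (SE 0.26; adjusted p = 0.383 by limma). Mdm2 had 0.23 (SE 0.13, adjusted p = 0.273) and Bax, between 49.3 and 50.8 CPM in the 4 rats, had 0.35 (SE 0.12, adjusted p = 0.121). With median-ratio scaling these changes were 0.19 for Ccng1, 0.05 for Mdm2 and 0.18 for Bax. In this comparison 0.151% of all genes were called, and 0.741% with median-ratio scaling, so that few calls of any kind were made.

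The low Cdkn1a level under GQ-16 can be placed among the targets by setting GQ-16-treated rats beside PAN rats, as a description. Cdkn1a had a mean of 49.2 ± 14.2 CPM in PAN rats and 18.0 ± 3.15 CPM after GQ-16 (SD, n = 4). Phlda3 had 60.2 ± 18.7 and 28.4 ± 9.41 CPM, and Ccng1 had 170.3 ± 39.3 and 109.8 ± 30.6 CPM. The highest GQ-16 rat lay below the lowest PAN rat for each of them. The log2 changes were -1.38 (SE 0.19) for Cdkn1a, -1.07 (SE 0.27) for Phlda3 and -0.65 (SE 0.26) for Ccng1, and -1.25, -0.94 and -0.53 with median-ratio scaling. The median over all genes was -0.11, and 0.006 with median-ratio scaling.

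Bax had -0.23 (SE 0.12), and -0.10 with median-ratio scaling, and was lower in every GQ-16 rat on the first scaling only. Mdm2 had -0.21 (SE 0.13), and -0.09 with median-ratio scaling, with overlapping ranges. Btg2 lay between 32.8 and 40.6 CPM with GQ-16 and between 38.8 and 51.2 CPM in PAN. Sesn1, Apaf1, Xpc and Zmat3 overlapped likewise, with means of 29.5, 29.8, 52.8 and 6.23 CPM in PAN and of 28.5, 25.4, 51.1 and 5.77 CPM with GQ-16. With median-ratio scaling the order of the means turned for Sesn1 (26.9 in PAN, 28.3 with GQ-16), Xpc (48.0 and 50.7) and Zmat3 (5.71 and 5.75).

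In all, 4 of 10 members were lower in every GQ-16 rat than in every PAN rat (3 with median-ratio scaling), where 3.47% of all genes were (1.85% with median-ratio scaling). Nothing is read from that count, since this contrast guided the choice. By size, 31 of the 13222 genes had a more negative log2 change than Cdkn1a, 74 a more negative one than Phlda3 and 425 a more negative one than Ccng1.

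The number in each library's title divides the libraries unevenly between groups. Among numbers of 15 or lower Cdkn1a stood at 40.2 CPM in the single PAN rat and between 15.1 and 22.5 CPM in 3 GQ-16 rats. Among numbers of 25 or higher it stood between 38.9 and 69.6 CPM in 3 PAN rats and at 17.2 CPM in the single GQ-16 rat. With a single rat on a side of each range, these are values only. All 4 control libraries had low numbers. The call for Phlda3 in PAN against control was not made among the low numbers alone, where the log2 change was 1.75 (limma adjusted p = 0.0871). A single PAN rat remained there and was assumed to vary like the rats of the other groups.

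**Figure D3:**
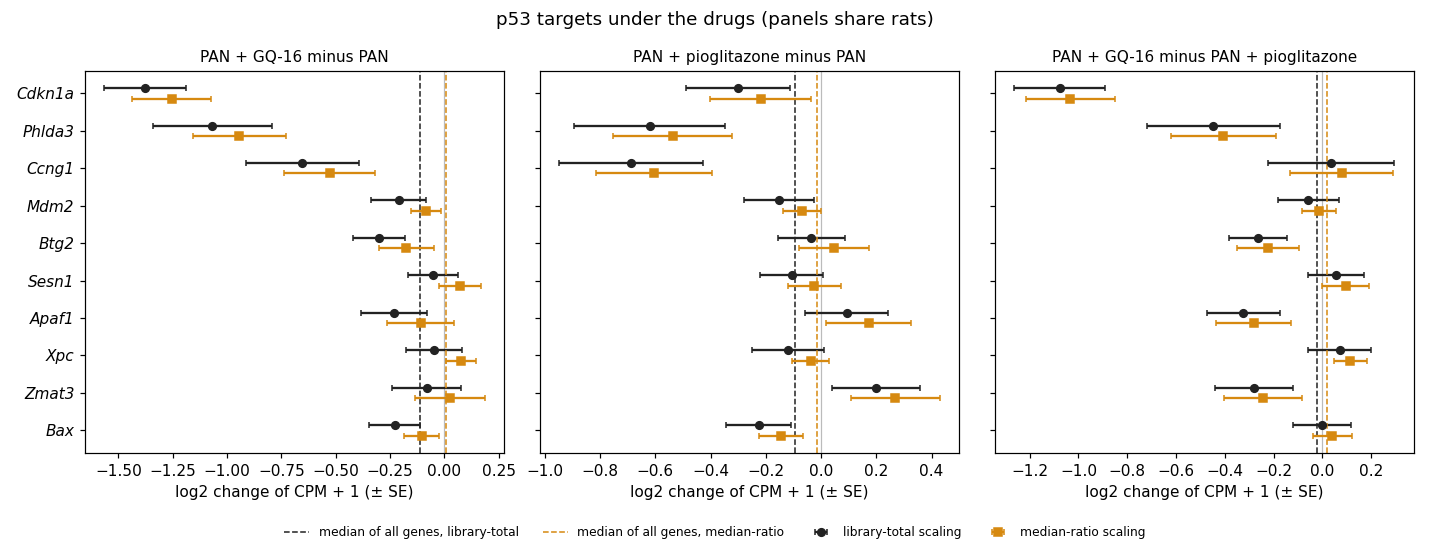
Log2 change of CPM + 1 (horizontal axes) with SE bars for the 10 targets, for GQ-16 against PAN, pioglitazone against PAN and GQ-16 against pioglitazone, on both scalings, with dashed lines at the median of all genes. Cdkn1a lies at -1.38 in the first panel, -0.30 in the second and -1.08 in the third. The panels share rats.

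Against PAN, pioglitazone left Cdkn1a at overlapping levels. The means were 49.2 in PAN and 38.7 ± 3.19 CPM with pioglitazone, and the log2 change was -0.30 (SE 0.19), with no test. It was -0.12 without PAN rat 2 and -0.03 among library numbers of 15 or lower. Phlda3 had -0.62 (SE 0.27) and Ccng1 had -0.69 (SE 0.26), each with a limma adjusted p of 0.916 and an unadjusted p under 0.05. Bax had -0.23 (SE 0.12, limma adjusted p = 0.916). It was lower in every pioglitazone rat by a bare margin, at most 53.15 against at least 53.17 CPM, and overlapped with median-ratio scaling. In limma 0 of 9 tested members passed, and 2 had an unadjusted p under 0.05. Across all genes 0% were called and 495 had an unadjusted p under 0.05. This comparison and the one of GQ-16 with PAN share the 4 PAN rats, so that their values are not independent.

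The drugs were then set against each other directly, which is a comparison of these treatments as given, since the doses are not stated. Every GQ-16 rat had less Cdkn1a than every pioglitazone rat, at most 22.5 against at least 36.6 CPM. The log2 change was -1.08 (SE 0.19), and -1.03 with median-ratio scaling, with no test. Such a gap was found for 1.94% of all genes, and for 1.46% with median-ratio scaling, and nothing is read from this, since the GQ-16 values entered the choice of the gene.

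Of the 9 other targets, 0 passed in limma between the drugs, with 0% of all genes called and 786 genes with an unadjusted p under 0.05. Phlda3 had a log2 change of -0.45 with a 95% interval from -1.03 to 0.13. Ccng1 had 0.04 with an interval from -0.52 to 0.59. Their ranges overlapped between the drugs, and the intervals do not show that the levels were alike.

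The intervals were narrower for Mdm2, from -0.33 to 0.21, and Bax, from -0.25 to 0.25. Btg2 had -0.26 (interval -0.52 to -0.01, adjusted p = 0.813) and Apaf1 had -0.32 (interval -0.64 to -0.01, adjusted p = 0.827). These were the 2 members with an unadjusted p under 0.05, and neither had with median-ratio scaling. Zmat3 had -0.28 (interval -0.62 to 0.06), Sesn1 0.05 (-0.19 to 0.30) and Xpc 0.07 (-0.20 to 0.35).

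The order of the Cdkn1a group means was control, GQ-16, pioglitazone and PAN. Control and GQ-16 ranges met between 15.1 and 15.5 CPM, and pioglitazone and PAN ranges met between 38.9 and 43.4 CPM. Phlda3 had the same order of means, with more overlap between neighbours. In Ccng1 the means of the drug groups were nearly equal, at 108.1 ± 34.8 and 109.8 ± 30.6 CPM (SD, n = 4), as they were in Bax, at 50.3 and 50.2 CPM.

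The genes whose levels over the 16 libraries were most like those of Cdkn1a, by Pearson correlation of log2(CPM + 1) among 11615 genes with a mean of at least 5 CPM, were Ptgs1 (r = 0.95), Dusp6 (0.95), Cdk5rap2 (0.94), P2rx1 (0.93) and Col4a1 (0.93). They encode cyclooxygenase-1, an ERK phosphatase, a centrosomal protein, an ATP-gated channel and a basement membrane collagen. The points share the group structure and the scaling of the libraries. With median-ratio scaling Cdk5rap2 had a coefficient of 0.81 and rank 102 and Col4a1 one of 0.89 and rank 9, so that both left the first 5.

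Ptgs1 had means of 12.0 CPM in control, 19.2 with GQ-16, 32.9 with pioglitazone and 34.5 in PAN, the same order of groups as Cdkn1a. Among the p53 targets Phlda3 was nearest, with r = 0.88 and rank 49, followed by Bax with 0.80 and Mdm2 with 0.71. Ccng1 had 0.55, Xpc 0.31 and Sesn1 0.09, and with median-ratio scaling the last pair had -0.63 and -0.60. On that scaling Phlda3 had 0.84, Bax 0.66, Mdm2 0.48, Ccng1 0.36, Apaf1 0.27 and Btg2 0.16. Over the rats' deviations from their group means the order differed, with Apaf1 at 0.63, Zmat3 0.56, Bax 0.55, Phlda3 0.46, Mdm2 0.25 and Ccng1 -0.08. No p53 target of the 10 was among the 5 genes most like Cdkn1a.

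**Figure D4:**
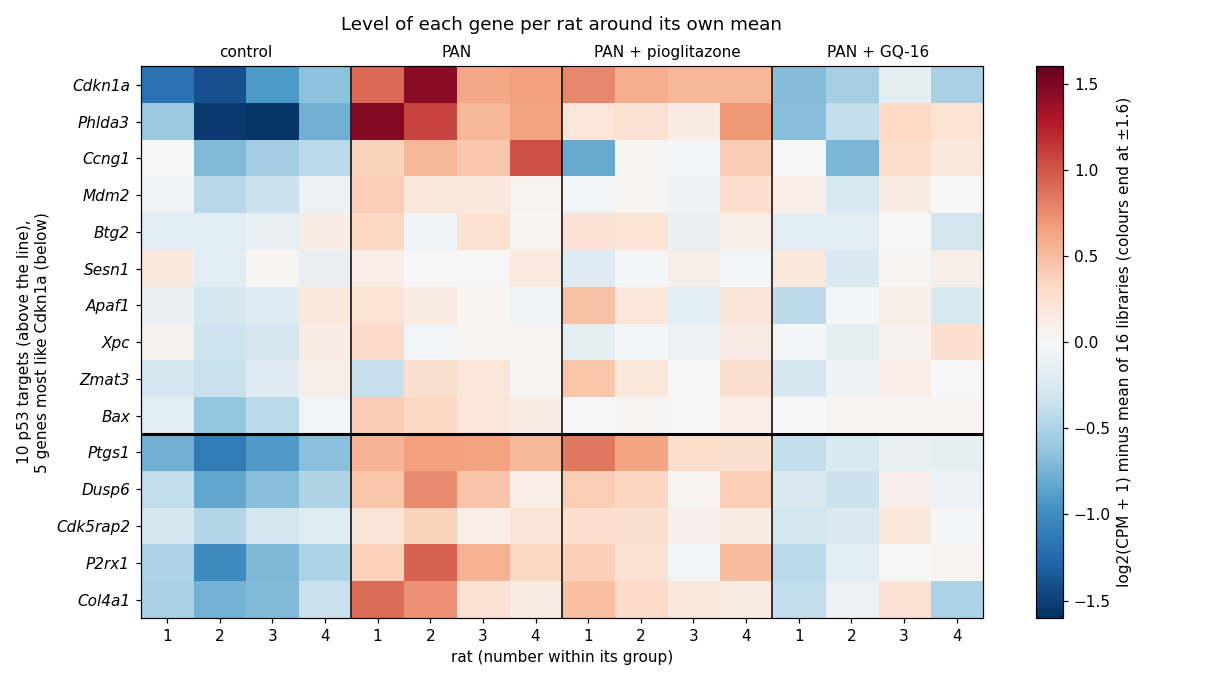
Each rat's log2(CPM + 1) around the gene's mean of 16 libraries (colour, red above and blue below), for the 10 targets above the line and the 5 genes most like Cdkn1a below it. Rats run along the horizontal axis by group. Control and GQ-16 columns are blue and PAN and pioglitazone columns red for Cdkn1a and Ptgs1, while the Sesn1 and Xpc rows are pale throughout.

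A wider list of 47 other p53 targets, 38 of them in the table, was examined to see how far the pattern extended. In PAN 12 rose and 0 fell against control (7 and 0 with median-ratio scaling), where 21.7% of all genes rose and, with median-ratio scaling, 8.63% changed. The median change was 0.27 against 0.28 for all genes. Those with the smallest adjusted p were Aen, an apoptosis-enhancing nuclease (log2 change 0.96, limma adjusted p = 0.00116), and Ckap2, a spindle protein (2.01, 0.00141). Plk3, a stress-responsive kinase, was named for its limma adjusted p with pioglitazone against control (0.0285). It rose in PAN by 0.88 (0.00239). With pioglitazone 4 of 38 rose against control (2 with median-ratio scaling), where 4.98% and 2.86% of all genes changed. With GQ-16 0 of 38 did in limma, where 0.151% of all genes changed.

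Beside PAN, every GQ-16 rat was lower for 4 of the 38, among them Plk3, Rps27l and Ddit4, named here after their values were seen, and for 3.47% of all genes. Rps27l had means of 16.8 CPM in control, 24.5 with GQ-16, 26.4 with pioglitazone and 38.1 in PAN. With median-ratio scaling Plk3 and Ddit4 overlapped. On that scaling 3 of the 38 were lower in every GQ-16 rat, among them Rps27l and Pml, where 1.85% of all genes were, and 2 were higher in every GQ-16 rat, Plk2 and Abhd4, where 1.41% of all genes were. These names too were chosen after their values were seen.

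Mdm4, the partner of Mdm2 that masks p53, had a log2 change of -0.05 in PAN against control (adjusted p = 0.781 by limma), and fell by 0.35 with median-ratio scaling (adjusted p = 0.0437). Of the 23 listed regulators of p53 that were measured, 6 rose and 0 fell in PAN, a share near the 21.7% of all genes that rose. With median-ratio scaling 0 rose and only Mdm4 fell, where 8.63% of all genes changed and 1.5% fell. The 6 included Rchy1, a ubiquitin ligase for p53, with 0.51 (adjusted p = 0.0144), and Rpl11, a ribosomal protein that can bind Mdm2, with 0.49 (adjusted p = 0.0194). Transcript levels carry no information on p53 protein or its modification.

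Of the other CDK inhibitors 3 were in the table. Cdkn1b, which encodes p27, had means between 66.1 and 74.2 CPM in the 4 groups and a log2 change of 0.16 in PAN (limma adjusted p = 0.323). Cdkn1c, which encodes p57 and is a podocyte marker, varied widely between rats, with 298.5 ± 139 CPM in PAN rats but 432.9 ± 227 CPM after GQ-16. Cdkn2c rose in PAN by 1.07 (adjusted p = 0.00585), and its change of 0.79 with median-ratio scaling missed the threshold (adjusted p = 0.0707). Its group means, 7.00 CPM in control, 10.4 with GQ-16, 12.6 with pioglitazone and 15.8 in PAN, stood in the order of those of Cdkn1a.

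Cell-cycle genes were high in the same injured glomeruli that were high in Cdkn1a. The table held 21 listed proliferation genes, and 21 of them rose in PAN (18 with median-ratio scaling), with a median change of 1.59, where 21.7% of all genes rose and 8.63% changed with median-ratio scaling. With pioglitazone 16 rose (2 with median-ratio scaling), where 4.98% and 2.86% of all genes changed. With GQ-16 0 did in limma on either scaling, where 0.151% and 0.741% of all genes changed. The median change of the list against control was 1.04 with pioglitazone and 0.86 with GQ-16, on library-total scaling. Top2a, which untangles replicated DNA, had means of 7.58 CPM in control, 26.6 with GQ-16, 35.0 with pioglitazone and 47.5 in PAN, and spread from 5.76 to 41.5 CPM over the GQ-16 rats, so that its GQ-16 and PAN ranges overlapped. Cdk1, a kinase that p21 can inhibit, rose in PAN by 2.34 (limma adjusted p = 0.00101), and Foxm1 and Ccna2 rose too.

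The next counts are to be read against the 21.7% of all genes that rose in PAN and the 8.63% that changed with median-ratio scaling. Among 22 cyclins, CDKs and p21 partners, 11 rose in PAN (5 with median-ratio scaling), among them Ccnd3, and Pcna on library-total scaling alone (adjusted p = 0.0576 with median-ratio scaling). Of 17 genes of mitochondrial apoptosis, partners of Bax and Apaf1, 3 rose (0 with median-ratio scaling), including Bak1, the close relative of Bax, with a log2 change of 0.43 (limma adjusted p = 0.0281). Of 21 nucleotide excision repair genes, partners of Xpc, 5 rose (1 with median-ratio scaling), including Rpa2 with 0.77 (adjusted p = 0.00247) and Rpa1. Of 22 other transcription factors known to act on Cdkn1a, 3 rose (1 with median-ratio scaling), among them Cebpb with 0.99 (adjusted p = 0.0160) and, on library-total scaling alone, Runx1 with 0.88 (adjusted p = 0.0196; 0.0640 with median-ratio scaling). The shares of the apoptosis, repair and transcription factor lists were near or below that of all genes. None of the genes in these 4 lists fell in PAN on either scaling.

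Markers listed for other cell types were summed in each library. The 9 listed mesangial and smooth muscle markers summed to between 305 and 824.9 CPM in control, 737.1 and 1400 with GQ-16, 1184 and 1671 with pioglitazone and 1661 and 2785 in PAN, and 8 of 9 rose in PAN (7 with median-ratio scaling), where 21.7% of all genes rose and 8.63% changed with median-ratio scaling. The order of the group ranges is the one seen for Cdkn1a. Des, a gene of this list, had means of 85.6 CPM in control, 256.6 with GQ-16, 315.9 with pioglitazone and 724.8 in PAN. It was named after its values were seen. The sum thus depends strongly on Des, and which cells expressed it was not tested. The counts of the other marker lists are to be read against the same shares. Leukocyte markers summed to between 474 and 803.2 CPM in control, 528.5 and 821.4 with GQ-16, 725.5 and 986 with pioglitazone and 724.3 and 1626 in PAN, with 5 of 9 higher in PAN (0 with median-ratio scaling). None of the markers in the table was at 0 in any group. In whole glomeruli fewer cells of a type and less RNA per cell cannot be told apart, and the part of these shifts in the Cdkn1a values was not tested.

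Parietal epithelial markers summed to between 232.2 and 478.6 CPM in control and between 470.8 and 766.6 CPM in PAN, and 4 of 8 rose (1 with median-ratio scaling). Of 10 distal tubule and collecting duct markers 5 fell in PAN (4 with median-ratio scaling), where 0.522% and 1.5% of all genes fell, and their sums overlapped, between 1009 and 1741 CPM in control and between 539 and 1131 CPM in PAN. Of 10 podocyte markers 3 rose (1 with median-ratio scaling), of 9 endothelial markers 1 rose on both scalings, and of 10 proximal tubule markers 0 passed. Podocyte sums lay between 2179 and 8870 CPM in control (median 3226) and between 6958 and 10440 CPM in PAN (median 8733), with overlapping ranges. Those with GQ-16, between 4003 and 14000 CPM, overlapped both. Against control the median log2 change of the 10 markers was 1.475 for PAN rats (1.18 with median-ratio scaling). It was 1.59 for GQ-16 rats (1.41) and 1.14 for pioglitazone rats (0.93), where 0 markers passed. The part of this podocyte shift in the Cdkn1a changes against control was not tested.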

How the data were processed

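The deposited table holds log2 CPM values made by the authors, with 0.5 read added to each count and 1 to each total, for 13222 genes of which 12741 are protein coding. Per the submitters' processing notes HISAT2, featureCounts of Subread, limma and Rnor_6.0 were used, with roles and versions not given in the sources used here. Per the labels' protocols the libraries were stranded poly(A) libraries read in pairs. Undoing the log gave whole reads for 100% of values within 0.01 read. Listed genes had been filtered before deposit, since each reached 2.04 CPM or more in at least 8 libraries.

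CPM values were recovered by raising 2 to each deposited number. limma 3.58.1 in R 4.3.3 was fitted to log2(CPM + 1) over all 16 libraries with 4 group means and a variance trend, and called genes at a Benjamini-Hochberg adjusted p under 0.05. The pseudocount of 1 CPM understates changes of low genes. The limma branch of the planned design, meant for normalized values, was used. The script recovered known changes in simulated data. Libraries of a group were checked for duplicates, and none agreed within counting error. Only the labels show that the libraries come from separate rats.

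The members and lists were chosen with earlier results of these data known. Beyond the members, at most 4 genes a list were named, those with the smallest adjusted p among genes changed in PAN or with pioglitazone against control, plus Mdm4, Cdkn1b and Cdkn1c, and the 5 genes most like Cdkn1a. Des and the genes named for their ranges with GQ-16 against PAN fall outside this rule and were chosen after their values were seen. Some genes of the lists are not reported here, and 2 of them were left out of the list counts. Promoters came from RefSeq for GRCr8, matched by symbol, and the element required whole core letters in both copies. Alternatives were median-ratio and quantile scaling, totals without the 21 mitochondrial genes, a pseudocount of 0.1, voom weights on the recovered reads, a mean of at least 10 CPM, a fit to the compared groups only, a term for library numbers from 25 upward, numbers of 15 or lower alone, each rat left out, and, added after seeing the data, the 13 libraries with under 30% mitochondrial reads.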

Additional observations from a re-analysis of the deposited data

Results flagged for a closer look

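In 1 of 40 groups of 4 rats (10 genes in 4 groups) a rat stood apart from the others of its group by Dixon's criterion. It was Btg2 in control rat 4, at 43.7 CPM, where the other 3 control rats lay between 35.7 and 36.8 CPM. The gap was 0.844 of the group's range, just above the limit for 4 values, and chance gives about 2 such cases in 40. With median-ratio scaling the same rat had 43.9 CPM in a control range from 34.8 to 48.0 CPM and no longer stood apart.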

How the results depend on the processing

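No paired analysis was possible because the labels give no replicate number, litter or batch shared between groups. Of 4 members changed in PAN against control, 0 changed among library numbers of 15 or lower (a single PAN rat), 1 with the library-number covariate, 1 in libraries under 30% mitochondrial reads, and 2 each with quantile scaling, totals without mitochondrial genes and voom, and leaving out a rat gave 2 to 4. Of the 2 members changed with pioglitazone against control 0 changed under 30% mitochondrial reads, and leaving out a rat gave 1 to 3. For GQ-16 against control the count of 0 became at most 1.

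Over all genes, 2943 changed in PAN against control: 1580 in the compared groups only, 79 among low library numbers, 393 with the covariate, 1141 with median-ratio and 1136 with quantile scaling, 1086 without mitochondrial totals, 1045 with voom, 56 under 30% mitochondrial reads, and 838 to 4964 leaving out a rat. With pioglitazone 659 changed: 285 among low numbers, 393 at a mean of at least 10 CPM, 378 with median-ratio, 384 with quantile, 356 without mitochondrial totals, 248 with voom, 0 under 30%, and 48 to 1660 leaving out a rat. With GQ-16 20 changed: 144 among low numbers, 33 with the covariate, 98 with median-ratio, 67 with quantile, 72 without mitochondrial totals, 35 with voom, 0 under 30%, and 0 to 1572 leaving out a rat. Pioglitazone against PAN gave 0 to 1 leaving out a rat.

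In PAN against control the sign turned under median-ratio, quantile, no-mitochondria and voom settings for Btg2 (-0.0692, -0.0771, -0.0809, -0.0688), Sesn1 (-0.196, -0.210, -0.209, -0.199), Apaf1 (-0.102, -0.123, -0.114, -0.104), Xpc (-0.104, -0.116, -0.116, -0.107) and Zmat3 (-0.0470, -0.131, -0.0585, -0.0766), and for Xpc under 30% mitochondrial reads (-0.00275). Between the drugs it turned for Bax under the same 4 settings (0.0409, 0.0418, 0.0427, 0.0389) and among low numbers (0.0263), and for Mdm2 among low numbers (0.0172) and under 30% (0.0216). Leaving out a rat gave -0.20 to 0.26 for Ccng1, -0.10 to 0.02 for Mdm2, -0.0044 to 0.13 for Xpc and -0.015 to 0.025 for Bax. The cause of these changes was not tested. Log2 changes were recomputed for all 10 members in PAN against control and between the drugs, and elsewhere for Cdkn1a, Phlda3, Ccng1, Mdm2 and Bax only. Of these, 36 turned sign, 29 lost a call, 3 gained one and 6 that have no test moved by more than the spread between rats. The other 644 kept their sign and, where tested, their side of the threshold. The other 5 members are not in these counts for the other comparisons, where several of their means also changed order with median-ratio scaling.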
